A study of Mus musculus with 15 samples.

Results

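Protocadherins are the largest group of the cadherin superfamily, and 65 of them were measured in mouse basal ganglia on the injured side, 3 days after intracerebral haemorrhage (ICH), a bleed into the brain tissue. The group holds the genes whose symbol starts with Pcdh and whose mean over the 15 libraries was at least 0.5 CPM (counts per 1000000 counts of the library). Of 70 such genes in a table of 54532, 65 reached that level, and the mean level that chose them is given only as a description. By family, these were 11 of 14 Pcdha genes, 21 of 22 Pcdhb genes, 21 of 22 Pcdhg genes and 12 of 12 genes outside the clusters. Just inside the threshold were Pcdha1 with a mean of 0.808 CPM, Pcdh12 with 1.17 and Pcdha7 with 1.27. Just outside were Pcdha8 with 0.339 CPM, Pcdhb1 with 0.167 and Pcdhga10 with 0.160. The other 2 below it were Pcdha4 with 0.0751 CPM and an Ensembl gene that also carries the symbol Pcdha11 (ENSMUSG00000102206) with 0.0817. All 65 passed the filter on low counts, and 56 of them had at least 10 counts in every library.

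The 15 wild-type mice fell into 3 groups of 5, with 1 poly-A RNA library per mouse. The NYKD group had ICH and then received Nao Yi Kang decoction by mouth, 5.79 g/kg once a day for 3 days. The ICH group and the sham-operated group were gavaged with distilled water on the same days. The design text names the treated group NYKD-M, and only 1 dose was sequenced. Brains were perfused with saline before the basal ganglia of the injured side were taken. The sources used here do not give strain, age, sex or the way the haemorrhage was made.

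Protocadherins are cell adhesion molecules that bind an identical partner on the facing membrane. The clustered genes lie side by side in the genome, and each neuron expresses a small, partly random set of them, which gives it a surface identity that its own branches recognise and avoid. A set is chosen by promoter: DNA loops held by CTCF and cohesin join a distant enhancer to a few promoters that DNA methylation has spared. In the Pcdha and Pcdhg clusters each variable exon is spliced to constant exons shared by the whole cluster, while a Pcdhb gene is a single variable exon with no constant part. The non-clustered members are expressed in regional patterns, and several of them recruit the WAVE actin-regulatory complex through their cytoplasmic tails. Fewer neurons and less RNA per neuron cannot be told apart in bulk tissue, which holds for every result here.

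Promoters are shown for 3 non-clustered members because they range from many to few matches to a motif known from the clustered genes. The promoter choice described above concerns the clustered genes and not these 3. The letters are from RefSeq, on the GRCm38.p6 build, and run 5′ to 3′ over 250 bases before and 50 bases after the annotated start. The table held a promoter for 9 of the 65 members, all non-clustered. Capitals mark CGCT, the core of the conserved element in clustered protocadherin promoters, and its reverse complement AGCG, with overlapping matches counted separately.
Pcdh10 promoter, chr3:45378148-45378447, plus strand: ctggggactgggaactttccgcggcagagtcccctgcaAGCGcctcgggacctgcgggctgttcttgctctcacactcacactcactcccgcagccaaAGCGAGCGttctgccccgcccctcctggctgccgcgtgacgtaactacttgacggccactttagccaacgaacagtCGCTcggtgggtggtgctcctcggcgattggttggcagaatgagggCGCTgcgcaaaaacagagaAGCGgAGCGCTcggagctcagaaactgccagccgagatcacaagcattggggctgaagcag
Pcdh17 promoter, chr14:84443313-84443612, plus strand: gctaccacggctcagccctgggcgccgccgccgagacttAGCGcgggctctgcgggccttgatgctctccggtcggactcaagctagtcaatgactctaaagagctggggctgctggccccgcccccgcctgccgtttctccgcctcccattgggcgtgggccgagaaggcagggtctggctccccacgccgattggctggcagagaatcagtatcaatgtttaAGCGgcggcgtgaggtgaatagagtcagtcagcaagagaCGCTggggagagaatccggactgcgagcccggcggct
Pcdh20 promoter, chr14:88471347-88471646, minus strand: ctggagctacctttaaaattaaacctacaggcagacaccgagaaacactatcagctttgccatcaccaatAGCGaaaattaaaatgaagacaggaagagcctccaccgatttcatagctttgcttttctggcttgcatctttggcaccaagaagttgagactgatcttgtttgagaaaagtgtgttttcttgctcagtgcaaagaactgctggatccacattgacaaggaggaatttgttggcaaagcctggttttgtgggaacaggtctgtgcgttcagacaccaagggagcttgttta
The Pcdh10 promoter had 8 matches and 24 CpG dinucleotides, and 1.69% of the 32851 promoters in the table had as many matches. The Pcdh17 promoter had 3 matches and 26 CpG, and 28.0% of promoters had as many matches. The Pcdh20 promoter had 1 match and 4 CpG, and 61.8% of promoters had at least 1 match. The median promoter held 7 CpG. Of the other members with a promoter in the table, Pcdh18 had 7 matches, Pcdh8 had 5, Pcdh15 had 4, Pcdh7 and Pcdh19 had 3 each and Pcdh9 had 2. Pcdh8 and Pcdh15 were the members whose promoter also held TATAAA, a core promoter motif. As TATAAA or its reverse complement TTTATA, it was present in 13.6% of all promoters. A match is a description of the letters and not a binding site.

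Libraries held 13539203 to 19909140 counts, and 18052 genes passed the count filter and were tested. Levels below are CPM with library sizes scaled by TMM, a normalisation that corrects for the make-up of each library. Striatal projection neuron markers, which define the labelled tissue, were detected in every group, with summed levels of 152.7 to 2055 CPM in NYKD libraries, 741.4 to 4213 CPM in ICH libraries and 884.6 to 5657 CPM in sham libraries. Of these 8 markers, 5 fell in NYKD relative to sham. Sham replicate 1 held the 884.6 CPM, while the other 4 sham libraries held at least 4638 CPM. ICH replicate 4 had the smallest total and a summed neutrophil marker level of 514.8 CPM, against at most 53.69 CPM in any other library. Neuronal markers summed to 1850 to 4289 CPM in NYKD, 2219 to 2617 CPM in ICH and 3350 to 4371 CPM in sham libraries, and 3 of 7 fell in ICH relative to sham. The part of cell composition in the protocadherin results below was not tested.

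**Figure D1:**
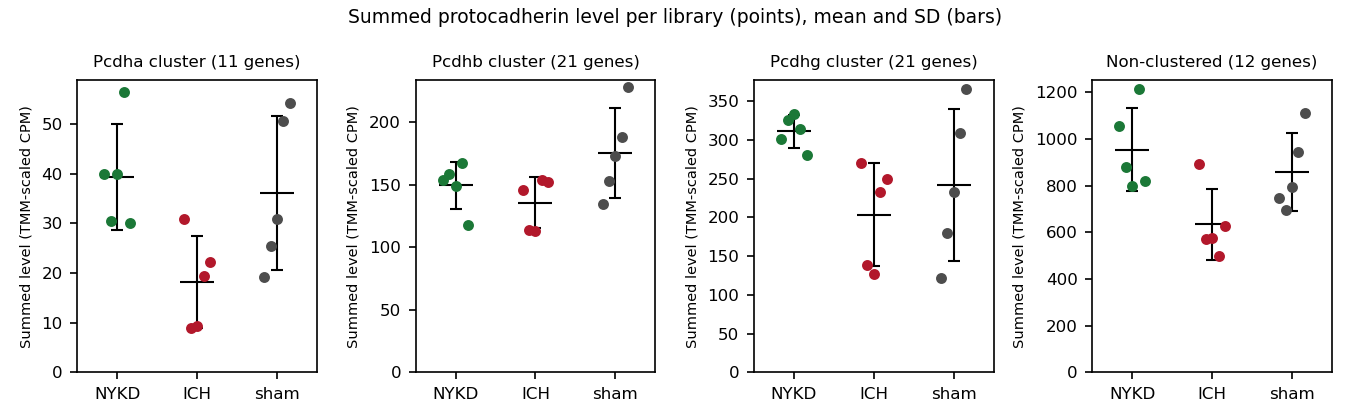
Summed level of each protocadherin family in TMM-scaled CPM (vertical axes, from 0) for the 5 NYKD, 5 ICH and 5 sham libraries; points are libraries, long bars means and short bars SD. The ICH group had the lowest mean in all 4 panels, and all 5 NYKD points lie above all 5 ICH points in the Pcdhg panel.

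Summed by family, protocadherin levels had their lowest mean in the ICH group. The 11 Pcdha genes summed to 39.4 ± 10.7 CPM in NYKD, 18.2 ± 9.23 CPM in ICH and 36.0 ± 15.5 CPM in sham libraries (SD, n = 5 each). The 21 Pcdhb genes summed to 149 ± 18.9 CPM in NYKD, 136 ± 20.5 CPM in ICH and 175 ± 35.8 CPM in sham libraries. The 21 Pcdhg genes summed to 311 ± 21.1 CPM in NYKD, 204 ± 66.3 CPM in ICH and 242 ± 97.7 CPM in sham libraries. The plot of summed levels shows that the sham libraries were spread more widely than the ICH libraries in all 3 clusters. Single Pcdhg sums were 301, 326, 334, 315 and 280 CPM in NYKD libraries, 270, 138, 127, 233 and 250 CPM in ICH libraries, and 122, 180, 233, 309 and 365 CPM in sham libraries. Every NYKD library was above every ICH library, and the NYKD values lay within the sham range. The 12 non-clustered genes summed to 954 ± 178 CPM in NYKD, 634 ± 151 CPM in ICH and 858 ± 169 CPM in sham libraries. Of the 5 ICH sums, 4 lay below every sham library.

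Per unit length, Pcdhgc3 was the most abundant member. Levels of different genes are compared here as CPM per kilobase of exon that no other annotated gene shares, because the constant exons of a cluster belong to many genes at once. The sources used here do not name the program that counted the reads, and this scale takes reads in shared exons as uncounted. Exonic bases shared on either strand are left out. Of 3678 shared exonic bases in Pcdhgc3, 2119 are shared on the same strand, so its rank also depends on strandedness, which is not stated. The 3 clusters lie on chromosome 18 (mm10), where the members span, for Pcdha, 36930184 to 37187661, for Pcdhb 37294812 to 37524479 and for Pcdhg 37661793 to 37841873. Exons unshared with another gene made up 35.1% to 51.4% of a Pcdha member and 26.4% to 68.5% of a Pcdhg member. Among Pcdhb members, 3 of 21 shared any exon sequence, and among non-clustered members 4 of 12. Pcdhga10, which has 0 unshared exonic bases, averaged 2.53 counts per library, and Pcdha4, with 404 unshared bases, averaged 1.20.

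On that scale Pcdhgc3 stood at 39.9 CPM per kb in NYKD, 24.1 in ICH and 19.4 in sham. Pcdh9, a delta protocadherin of forebrain neurons, came next over all libraries. It had 20.5 CPM per kb in NYKD, 12.9 in ICH and 19.8 in sham, where it stood slightly above Pcdhgc3. Pcdh1 had 17.6, 10.9 and 12.9 CPM per kb in NYKD, ICH and sham, and Pcdh10 had 13.9, 10.9 and 15.3. Next were Pcdh7, Pcdhgc5 and Pcdh17, all between 6.03 and 12.9 CPM per kb in every group. Pcdh12 was the lowest member, with 0.390 CPM per kb in NYKD, 0.135 in ICH and 0.0535 in sham. Across the 53 clustered members, the rank order of levels was much the same in any pair of libraries, with Spearman rho from 0.761 to 0.960 and a median of 0.909. These correlations run across genes that share exons, gene length and library, and carry no test.

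**Figure D2:**
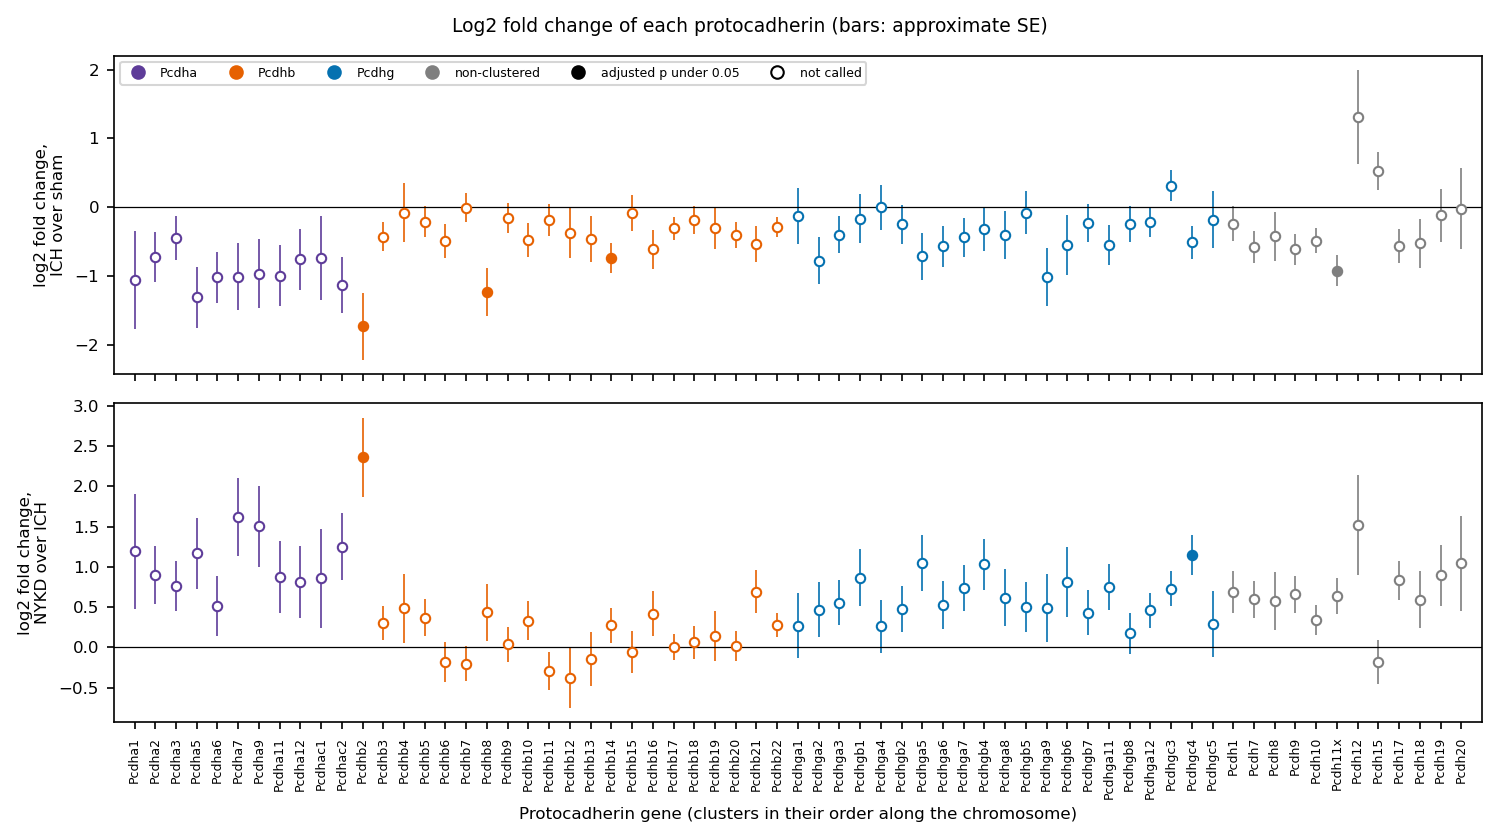
Log2 fold change of each of the 65 protocadherins (horizontal axis, clusters in chromosomal order, then non-clustered genes) for ICH over sham (upper panel) and NYKD over ICH (lower panel), with approximate SE as bars; filled points had an adjusted p under 0.05. In the upper panel 62 of 65 points lie below 0, and in the lower panel 58 of 65 lie above 0; the ICH libraries enter both panels.

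The ICH and sham groups were set against each other to see what differed after the bleed, and few of the protocadherins were called. Of the 65 members, 4 fell and 0 rose by edgeR: the clustered genes Pcdhb2, Pcdhb8 and Pcdhb14 and the X-linked Pcdh11x. Over all tested genes 17% were called in this comparison and 4.58% fell, so the members' share of lowered calls, 6.15%, was close to the background. The sign was less evenly split: 62 of 65 members had a log2 fold change below 0, compared with 46.0% of all tested genes, and the members' median was -0.44, compared with 0.05 over all genes. With scaling by library totals, which moved the all-gene median to 0.14, 56 of 65 members were below 0. At an unadjusted p under 0.05, 15 members were lower in ICH and 0 higher, against 11.7% of all genes lower at that level. Groups that did not overlap were seen for 2 members, both lower in ICH, against 3.25% of all genes.

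Pcdhb2 (chromosome 18, 37294812 to 37297624, mm10, plus strand, all of its exon unshared) is a member of the beta cluster. It had 1.28, 0.423, 0.177, 0.353 and 0.667 CPM in ICH libraries, against 1.11, 0.971, 1.28, 2.43 and 3.89 CPM in sham libraries. All but 1 of the ICH values lay below every sham value, and the sham values themselves ranged widely. The log2 fold change was -1.73 ± 0.49 (SE, adjusted p = 0.0224), a level 0.301 times that of sham. Pcdhb8 (chromosome 18, 37355121 to 37358604) had 2.11, 2.23, 0.826, 3.32 and 3.82 CPM in ICH libraries, against 3.52, 6.51, 5.83, 5.72 and 7.32 CPM in sham libraries. A single ICH library exceeded the lowest sham library, and the log2 fold change was -1.23 ± 0.35 (adjusted p = 0.0247). Pcdhb14 (chromosome 18, 37447656 to 37456350) had 10.7, 5.80, 7.49, 10.0 and 10.5 CPM in ICH libraries, against 13.6, 12.3, 14.6, 12.1 and 21.5 CPM in sham libraries. The groups did not overlap, and the log2 fold change was -0.73 ± 0.22 (adjusted p = 0.0296).

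The calls of Pcdhb2 and Pcdhb14 did not hold without sham replicate 5, their highest sham library, nor without ICH replicate 3. That of Pcdhb14 also did not hold without ICH replicate 2 or sham replicate 3, and that of Pcdhb8 did not hold without ICH replicate 1. The number of lowered members was 2 without ICH replicate 3 or sham replicate 5, among 496 and 619 lowered genes in all. It was 9 without ICH replicate 1, among 804, and 11 without sham replicate 1, among 883. With all libraries 826 genes were lowered. Without sham replicate 1 and ICH replicate 4, a pair chosen after the data were seen, all 4 members kept their call. There 8 more fell, among 1236 lowered genes in all: Pcdha5, Pcdha6, Pcdhac2, Pcdhb16, Pcdhb20, Pcdhga2, Pcdhga6 and Pcdhga9. Libraries kept in that fit had lower striatal marker sums than the 884.6 CPM of sham replicate 1. These were ICH replicate 3 (741.4 CPM) and NYKD replicates 1, 4 and 5 (775.8, 266 and 152.7 CPM).

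Pcdh11x (chromosome X, 120290259 to 120910619, plus strand) encodes a delta protocadherin of neurons. It had 24.9, 21.6, 16.8, 14.1 and 23.3 CPM in ICH libraries, against 36.1, 28.4, 39.1, 37.6 and 49.6 CPM in sham libraries. The highest ICH value lay below the lowest sham value. The log2 fold change was -0.92 ± 0.23 (adjusted p = 0.00992), a level 0.528 times that of sham, and the gene was called under all 24 other settings tried, with log2 fold changes from -1.02 to -0.82.

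Of the Pcdha members 0 passed edgeR's test, with 4 at an unadjusted p under 0.05, while DESeq2 called 3 lowered and limma-voom 0. All 11 had a log2 fold change below 0, with a median of -0.99. Pcdha5 had the smallest p of the alpha cluster, with 1.92, 0.483, 0.767, 1.06 and 0.848 CPM in ICH libraries, against 1.17, 1.89, 1.99, 3.75 and 3.83 CPM in sham libraries. Its log2 fold change of -1.31 ± 0.44 missed the threshold (adjusted p = 0.0514). Pcdhac2, a C-type member that serotonergic axons of the mouse need to spread out, was the most abundant alpha isoform per unshared kilobase. It had 13.6, 2.84, 3.07, 8.69 and 8.85 CPM in ICH libraries, against 7.21, 12.3, 13.5, 22.2 and 25.7 CPM in sham libraries, and the groups overlapped (-1.13 ± 0.41, adjusted p = 0.0708). Pcdhac1 averaged 0.925 ± 0.899 CPM in ICH and 1.54 ± 1.09 CPM in sham libraries, and Pcdha12 averaged 1.99 ± 1.24 and 3.37 ± 1.05 CPM in ICH and sham.

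Of the Pcdhb members, all 21 had a log2 fold change below 0, with a median of -0.37. Pcdhb17, Pcdhb20 and Pcdhb22, those with the highest CPM, had means of 15.96 ± 1.16, 11.5 ± 2.91 and 13.0 ± 1.82 CPM in ICH, against 19.7 ± 3.62, 15.2 ± 2.55 and 15.9 ± 2.58 CPM in sham. Their adjusted p ran from 0.163 to 0.227. Of the Pcdhg members, 20 of 21 were below 0 with a median of -0.32, and 0 passed by edgeR, with 2 at an unadjusted p under 0.05 and 0 called by DESeq2 or limma-voom. The member above 0 was Pcdhgc3 (0.32 ± 0.22, adjusted p = 0.352). Pcdhga9 had the smallest p of the gamma cluster, with a mean of 4.41 ± 2.16 CPM in ICH and 8.90 ± 5.34 CPM in sham (-1.01 ± 0.42, adjusted p = 0.110).

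The C-type gamma genes made up a larger part of their cluster in ICH than in sham libraries, while their summed level was nearly the same. These genes, Pcdhgc3, Pcdhgc4 and Pcdhgc5, lie at the end of the cluster and are not chosen at random in each neuron as the other isoforms are. Their share of all Pcdhg CPM was 43.4, 49.8, 43.5, 44.9 and 50.6% in ICH libraries, against 38.6, 40.0, 42.7, 39.7 and 36.9% in sham libraries. The lowest ICH share was above the highest sham share. In NYKD libraries it was 45.3, 46.3, 48.8, 41.8 and 48.4%. The C-type genes summed to 143.4 ± 13.1 CPM in NYKD, 94.6 ± 31.0 CPM in ICH and 95.2 ± 36.1 CPM in sham libraries. The other Pcdhg genes summed to 167.7 ± 14.45 CPM in NYKD, 109.2 ± 36.9 CPM in ICH and 146.7 ± 62.25 CPM in sham libraries. Pcdhgc3 alone took 23.5 ± 3.50% in NYKD, 22.0 ± 3.68% in ICH and 15.2 ± 2.13% in sham libraries. Pcdhgc4 took 6.19 ± 1.90% in NYKD, 4.41 ± 1.31% in ICH and 5.61 ± 2.496% in sham libraries, a lower mean share in ICH than in sham. The shares are a description, since the isoforms were singled out with their levels known.

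Sham libraries differed among themselves, and their myelin and astrocyte marker levels differed too. Summed oligodendrocyte markers were 7961 to 12660 CPM in NYKD, 3511 to 14080 CPM in ICH and 9566 to 19570 CPM in sham libraries, and 1 of 6 fell in ICH relative to sham. Among the 5 sham libraries, the Pcdhg sums and the Pcdha sums were both in the exact reverse of the order of the oligodendrocyte sums. That sham order was not particular to protocadherins. Lists described below also rose at each step from sham replicate 1 to 5. The sums went from 1883 to 3399 CPM for the WAVE complex list and from 514.1 to 704 CPM for classical and type II cadherins. For other cadherin-superfamily genes they went from 1389 to 2067 CPM. In the ICH group 0 of 5 libraries held the reversed rank for Pcdhg and 2 of 5 for Pcdha, with the same counts in the NYKD group. Summed markers of homeostatic astrocytes were 4443, 4512, 4506, 5769 and 7140 CPM in sham replicates 1 to 5. In NYKD replicates 1 to 5 they were 6057, 6605, 6331, 6138 and 4566 CPM. In ICH replicates 1 to 5 they were 5691, 4170, 3514, 2563 and 4772 CPM. Their mean was 5940 CPM in NYKD, 4142 CPM in ICH and 5274 CPM in sham, with ICH lowest, as for the Pcdhg sums. The part of the oligodendrocyte or astrocyte share in the protocadherin levels was not tested.

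**Figure D3:**
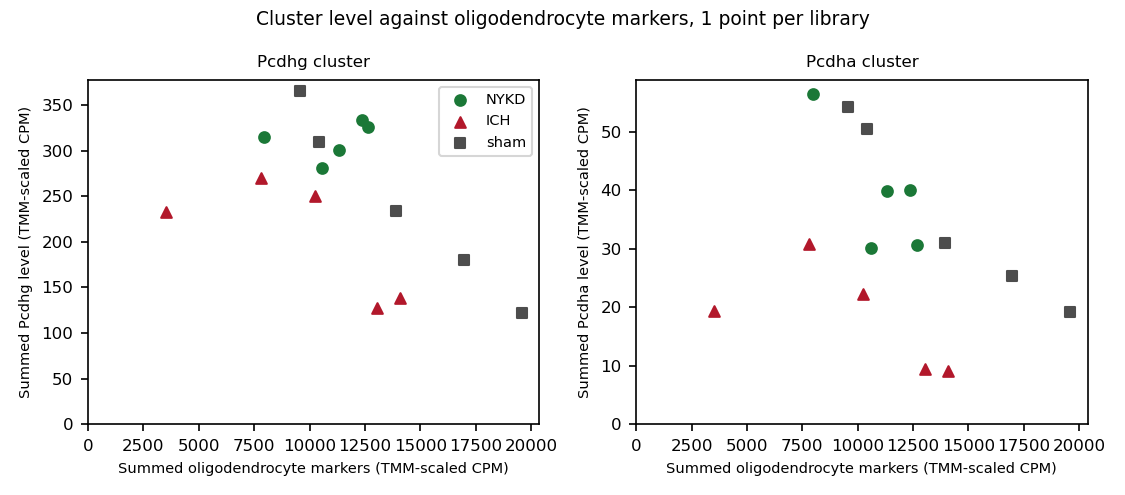
Summed level of the Pcdhg cluster (left) and the Pcdha cluster (right) against the summed level of 6 oligodendrocyte markers, both in TMM-scaled CPM, 1 point per library for NYKD (circles), ICH (triangles) and sham (squares). The 5 sham points fall steadily from left to right in both panels.

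Of the non-clustered members 1 of 12 fell in ICH against sham by edgeR, Pcdh11x, as by limma-voom, while DESeq2 called 3 lowered, Pcdh9 and Pcdh10 besides Pcdh11x. Without ICH replicate 1 edgeR also called Pcdh9 and Pcdh10, and without sham replicate 1 it called Pcdh10. Of these members, 10 of the 12 had a log2 fold change below 0. Among the delta-1 members, Pcdh9 averaged 87.8 ± 33.6 CPM in ICH and 134 ± 17.7 CPM in sham libraries (-0.61 ± 0.23, adjusted p = 0.0769). Pcdh7, whose cytoplasmic tail binds a protein phosphatase, averaged 71.3 ± 28.9 CPM in ICH and 106 ± 19.2 CPM in sham (-0.58 ± 0.23, adjusted p = 0.0976). Pcdh1, known also from airway epithelium, averaged 96.2 ± 30.7 CPM in ICH and 113 ± 41.1 CPM in sham (adjusted p = 0.562).

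Among the delta-2 members, Pcdh10, which striatal axons of the mouse need to find their path, averaged 172 ± 35.1 CPM in ICH and 241 ± 65.9 CPM in sham (-0.49 ± 0.18, adjusted p = 0.0742). Pcdh17, which organises presynaptic terminals in the mouse basal ganglia, averaged 78.3 ± 20.6 CPM in ICH and 116 ± 36.7 CPM in sham (-0.57 ± 0.25, adjusted p = 0.125). Their promoters, shown above, are both rich in CpG. Pcdh8, an activity-induced member, averaged 16.8 ± 7.38 CPM in ICH and 22.4 ± 5.41 CPM in sham. Pcdh18 averaged 6.89 ± 3.67 CPM in ICH and 9.93 ± 2.57 CPM in sham, and Pcdh19, the gene of a human epilepsy, averaged 32.1 ± 20.9 and 34.9 ± 7.53 CPM in ICH and sham. Pcdh20 averaged 17.1 ± 13.4 CPM in ICH and 17.3 ± 4.87 CPM in sham. The adjusted p of these 4 lay between 0.335 and 0.987. The members above 0 were Pcdh12 (1.31 ± 0.69, adjusted p = 0.206) and Pcdh15, a hair-cell tip-link protein also made by oligodendrocyte precursors (0.53 ± 0.27, adjusted p = 0.199).

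**Figure D4:**
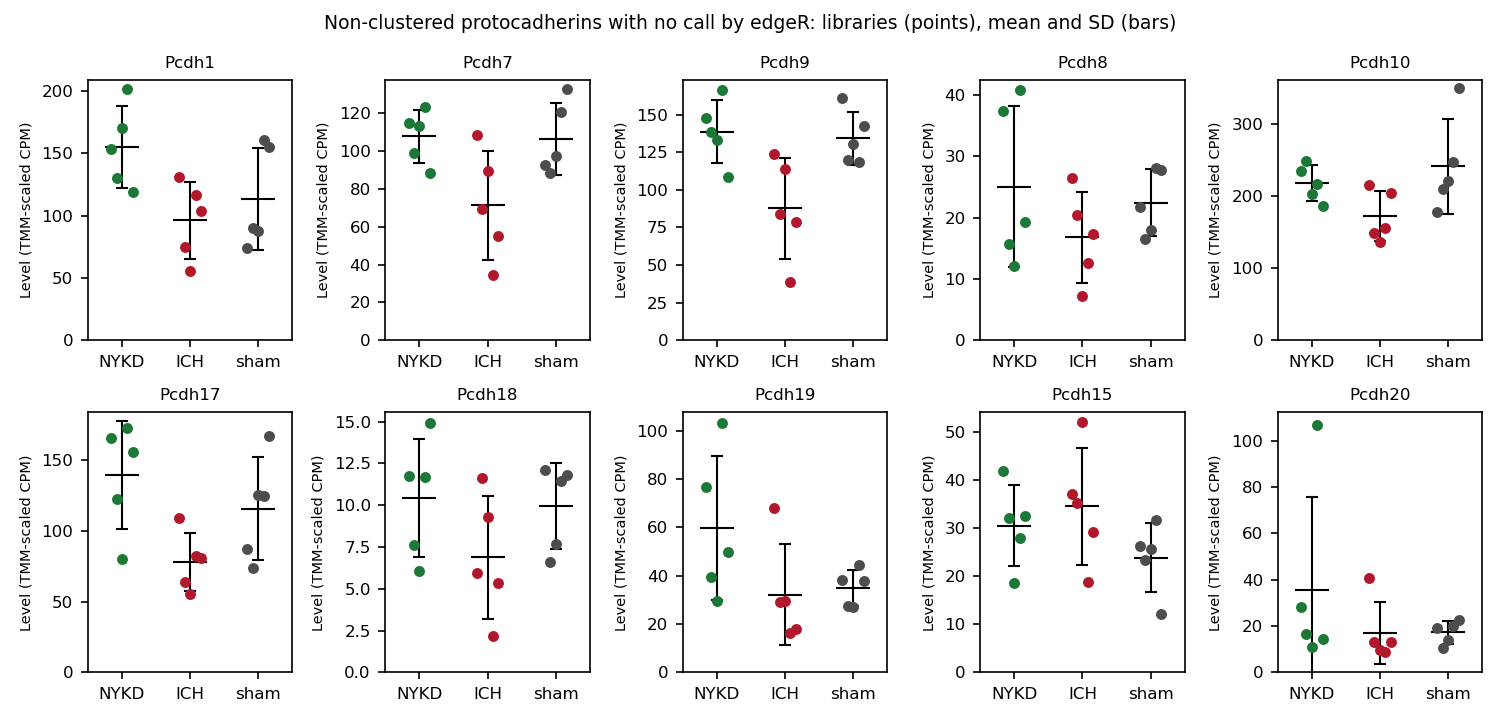
Level of the 10 non-clustered protocadherins that edgeR called in no comparison, in TMM-scaled CPM (vertical axes, from 0), for NYKD, ICH and sham libraries; points are libraries, bars mean and SD, and the SD bar of Pcdh20 in NYKD is clipped at 0. ICH had the lowest mean in 9 of the 10 panels, Pcdh15 being the exception.

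Treated and untreated mice with a bleed, the NYKD and ICH groups, were compared to see what differed with the decoction. Markers of tissue regions differed in mean as well. Cortical and thalamic excitatory neuron markers summed to 759.5 ± 312.2 CPM in NYKD and 445.8 ± 218.6 CPM in ICH. Striatal projection neuron markers summed to 933.1 ± 801.6 and 2118 ± 1541 CPM. By edgeR 0 markers of either list passed, and the part of tissue make-up in the protocadherin values was not tested. Of the 65 members, 2 rose and 0 fell by edgeR: Pcdhb2 and Pcdhgc4. Over all tested genes 3.46% were called in this comparison and 1.19% rose, so the members' share of raised calls, 3.08%, rests on 2 genes against a low background. DESeq2 called 10 members raised, among 792 raised genes in all, and limma-voom 2, among 184. Of the members, 58 of 65 had a log2 fold change above 0, compared with 48.8% of all tested genes, and their median was 0.53, compared with -0.01 over all genes. With library totals, which moved the all-gene median to -0.09, 54 were above 0. At an unadjusted p under 0.05, 23 members were higher in NYKD and 0 lower, against 9.9% of all genes higher. Groups did not overlap for 7 members, all higher in NYKD, against 2.55% of all genes: Pcdha2, Pcdha7, Pcdhb2, Pcdhga5, Pcdhga7, Pcdhgb4 and Pcdhgb6. The 5 ICH libraries enter this comparison and the one with sham, so a level that was low in ICH by chance gives opposite signs in both, and the values are set side by side without a test of opposite change.

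Pcdhb2 had 3.54, 3.39, 2.499, 3.52 and 2.12 CPM in NYKD libraries, against the 0.177 to 1.28 CPM of the ICH libraries given above. The lowest NYKD library was above the highest ICH library. The log2 fold change was 2.37 ± 0.49 (adjusted p = 0.0315), a level 5.15 times that of ICH, and NYKD did not pass against sham (0.63 ± 0.45, adjusted p = 0.326). Pcdhgc4 (chromosome 18, 37815079 to 37841873, 62.1% of its exonic bases unshared) encodes the gamma isoform on which the survival of inhibitory interneurons depends in mice. It had 23.3, 12.4, 16.3, 19.4 and 23.4 CPM in NYKD libraries, against 13.5, 7.67, 6.96, 6.22 and 8.42 CPM in ICH libraries. A single ICH library reached above the lowest NYKD library. The log2 fold change was 1.15 ± 0.24 (adjusted p = 0.0315), a level 2.22 times that of ICH. In sham libraries Pcdhgc4 had 8.74 to 15.5 CPM, and neither ICH (-0.51 ± 0.24, adjusted p = 0.163) nor NYKD (0.64 ± 0.24, adjusted p = 0.0641) passed against sham.

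Both calls were lost when certain single libraries were left out. They did not hold without ICH replicate 4, ICH replicate 5 or NYKD replicate 1, 3, 4 or 5. There 0 members were called by edgeR, and 20 to 23 members had an unadjusted p under 0.05. Calls were lost over all tested genes too, with 0 to 9 genes called in these settings, against 625 with all libraries. Without ICH replicate 1, 16 members rose among 725 raised genes, and without sham replicate 5, 6 rose among 489. Without ICH replicate 4 and sham replicate 1 the log2 fold changes were 2.25 for Pcdhb2 (adjusted p = 0.0644) and 1.06 for Pcdhgc4 (adjusted p = 0.0658).

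The other C-type genes had the same sign. Pcdhgc3 had 69.0, 79.2, 77.2, 58.6 and 79.7 CPM in NYKD libraries, against 58.7, 36.3, 29.5, 37.7 and 57.1 CPM in ICH libraries. The groups overlapped by 1 pair of nearly equal libraries, and the log2 fold change of 0.73 ± 0.22 missed the threshold (adjusted p = 0.0682). Pcdhac2 had 18.6, 14.3, 16.9, 25.4 and 13.0 CPM in NYKD libraries, and its log2 fold change over ICH was 1.25 ± 0.41 (adjusted p = 0.0879). Pcdhgc5 averaged 51.7 ± 14.1 CPM in NYKD and 42.2 ± 19.7 CPM in ICH (adjusted p = 0.706), and Pcdhac1 averaged 1.68 ± 0.58 and 0.925 ± 0.899 CPM in NYKD and ICH (adjusted p = 0.420).

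By cluster, the log2 fold changes of NYKD over ICH were above 0 for 11 of 11 Pcdha members (median 0.90), 21 of 21 Pcdhg members (median 0.53) and 15 of 21 Pcdhb members (median 0.14). In the alpha cluster Pcdha7 had the smallest p, with 3.01, 1.29, 1.41, 2.82 and 1.29 CPM in NYKD libraries, against 1.21, 0.181, 0.413, 0.707 and 0.667 CPM in ICH libraries. The groups did not overlap, and the gene missed the threshold (1.62 ± 0.48, adjusted p = 0.0652). Pcdha9 averaged 3.55 ± 1.58 CPM in NYKD and 1.25 ± 0.94 CPM in ICH (adjusted p = 0.0902). In the gamma cluster Pcdhgb6 had 16.9 to 20.5 CPM in NYKD libraries and 2.60 to 15.1 CPM in ICH libraries (0.81 ± 0.43, adjusted p = 0.274). In the beta cluster Pcdhb17 averaged 16.03 ± 3.44 CPM in NYKD and 15.96 ± 1.16 CPM in ICH, and Pcdhb20 averaged 11.6 ± 1.85 and 11.5 ± 2.91 CPM.

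Among non-clustered members, 11 of 12 were above 0 in NYKD over ICH, with a median of 0.65, and 0 passed by edgeR, with 7 at an unadjusted p under 0.05, while DESeq2 called 2 and limma-voom 0. Pcdh17 was the nearest, with 166, 123, 80.1, 173 and 156 CPM in NYKD libraries, against 109, 63.6, 55.6, 82.1 and 81.2 CPM in ICH libraries. All but 1 of the NYKD values lay above every ICH value (0.83 ± 0.25, adjusted p = 0.0645). Pcdh9 averaged 139 ± 21.3 CPM in NYKD and 87.8 ± 33.6 CPM in ICH (0.66 ± 0.23, adjusted p = 0.101), and Pcdh11x averaged 31.5 ± 10.5 and 20.2 ± 4.53 CPM (0.64 ± 0.23, adjusted p = 0.103). Pcdh1 averaged 155 ± 32.8 CPM in NYKD and 96.2 ± 30.7 CPM in ICH (adjusted p = 0.122), and Pcdh7 averaged 108 ± 13.9 and 71.3 ± 28.9 CPM (adjusted p = 0.135). Pcdh10 averaged 218 ± 24.7 CPM in NYKD and 172 ± 35.1 CPM in ICH (adjusted p = 0.270). Pcdh8, Pcdh18, Pcdh19 and Pcdh20 had log2 fold changes of 0.58, 0.59, 0.89 and 1.05, with adjusted p from 0.174 to 0.348. The value of Pcdh20 was 0.044 without NYKD replicate 4 and 1.66 without ICH replicate 1, and that of Pcdh19 was 1.37 without ICH replicate 1. The member below 0 was Pcdh15, with 30.6 ± 8.45 CPM in NYKD and 34.5 ± 12.2 CPM in ICH.

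**Figure D5:**
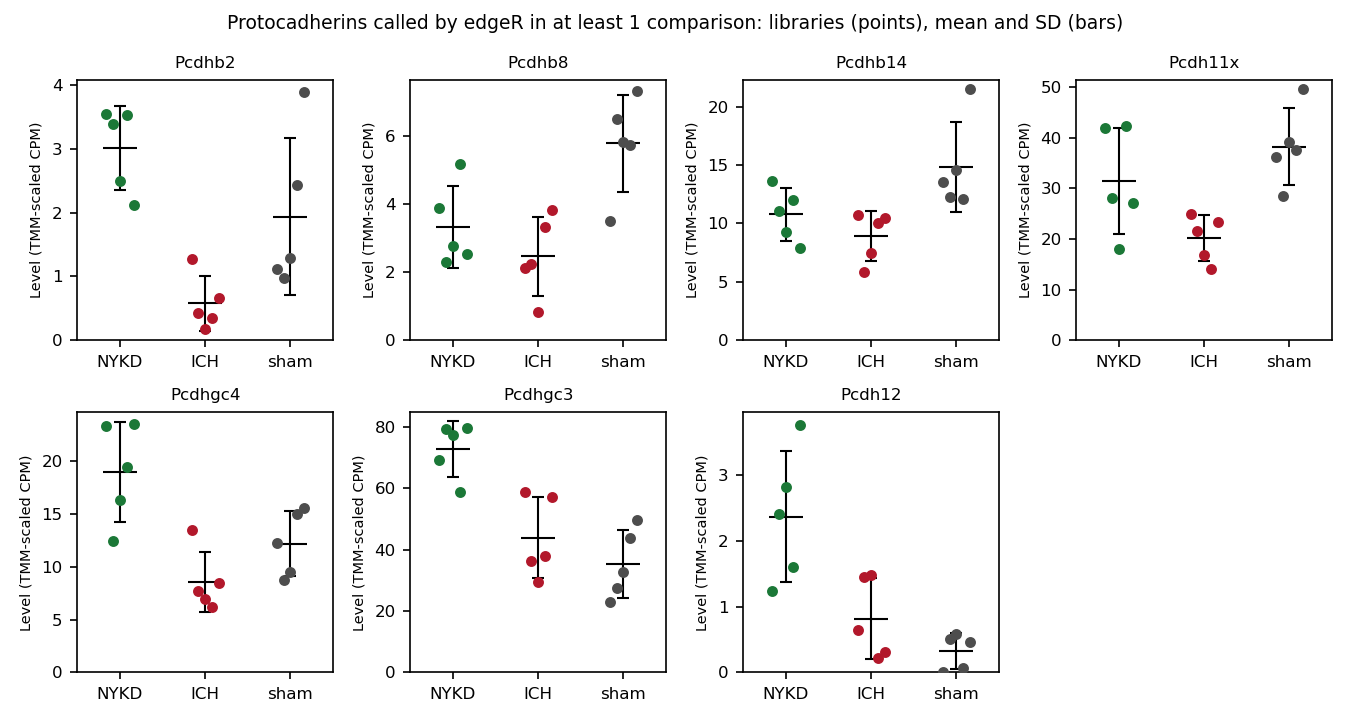
Levels of the 7 protocadherins that edgeR called in at least 1 comparison, in TMM-scaled CPM (vertical axes, from 0), for NYKD, ICH and sham libraries; points are libraries, bars mean and SD. Pcdhgc3 and Pcdh12 in NYKD lie wholly above sham, and Pcdh11x and Pcdhb14 in ICH lie wholly below sham.

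Treated mice were also set against mice without a bleed. Of the 65 members 2 rose and 0 fell by edgeR: Pcdhgc3 and Pcdh12. At an unadjusted p under 0.05, 4 were higher and 2 lower in NYKD, 9.23% of the members, against 36.7% of all genes. DESeq2 called 2 raised and 1 lowered, Pcdhb6, among 3004 raised and 2074 lowered genes in all. With limma-voom 2 were raised, among 2764 raised genes. Over all tested genes 23.4% were called and 15.3% rose, and the members' share of raised calls was 3.08%, below that background. The log2 fold changes lay on both sides of 0, with 39 of 65 above it and a median of 0.13. By cluster the medians were 0.13 for Pcdha, -0.16 for Pcdhb and 0.23 for Pcdhg, and 17 of 21 Pcdhb members were below 0. Groups did not overlap for 3 members, against 18.7% of all genes: Pcdhgc3 and Pcdh12, higher in NYKD, and Pcdhb12, lower in NYKD. In the fit of the 2 groups alone 4 members rose and 1 fell.

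Pcdhgc3 (chromosome 18, 37806364 to 37841873, 33.1% of its exonic bases unshared) promotes dendritic branching of cortical neurons in the mouse and binds the Wnt pathway scaffold Axin1. The NYKD libraries had 58.6 to 79.7 CPM, against 22.9, 27.4, 32.7, 43.6 and 49.6 CPM in sham libraries. The lowest NYKD library was above the highest sham library. The log2 fold change was 1.05 ± 0.22 (adjusted p = 0.00284), a level 2.06 times that of sham, and the gene was called under every other setting tried.

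Pcdh12 (chromosome 18, 38267089 to 38284402, minus strand) encodes VE-cadherin-2, the protocadherin of endothelial cells. It had 1.24, 2.40, 2.82, 1.60 and 3.76 CPM in NYKD libraries, against 0, 0.514, 0.576, 0.0658 and 0.465 CPM in sham libraries. The groups did not overlap, and sham replicate 1 had no count. The log2 fold change was 2.83 ± 0.68 (adjusted p = 0.00652), called under all 24 other settings with values from 2.52 to 3.33. The settings included a fit without the count filter, which Pcdh12 passed mainly through its NYKD libraries. In ICH libraries Pcdh12 had 0.639, 1.45, 1.47, 0.212 and 0.303 CPM, a mean between those of the other groups, and they overlapped with sham. Endothelial markers moved with it: 6 of 7 rose in NYKD relative to sham and 3 of 7 in ICH relative to sham. Their sums were 417.9 to 542.2 CPM in NYKD, 366.1 to 501.0 CPM in ICH and 275.2 to 350.4 CPM in sham libraries, and the part of endothelial content in the Pcdh12 result was not tested.

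Proteins that act with protocadherins were examined as lists chosen from general knowledge of the pathway. Of 16 regulators of promoter choice and chromatin at the clusters, 1 rose in ICH relative to sham, the cohesin subunit gene Stag1 (0.55 ± 0.12, adjusted p = 0.00437), with 81.2 CPM in ICH and 55.3 CPM in sham on average. Over all tested genes 12.4% rose in ICH relative to sham and 15.3% in NYKD relative to sham, the background of this and the following lists. For the other counts below, 4.58% of all genes fell in ICH relative to sham and 1.19% rose in NYKD relative to ICH. In NYKD against ICH 0 of the 16 passed by edgeR, with 4 at an unadjusted p under 0.05, and DESeq2 called 1 raised and 1 lowered and limma-voom 0. In NYKD against sham 4 rose: the cohesin subunit gene Smc1a (0.57 ± 0.11), the cohesin loader gene Nipbl (0.60 ± 0.15), the silencing factor gene Smchd1 (0.55 ± 0.14) and the maintenance DNA methyltransferase gene Dnmt1 (0.71 ± 0.13), with adjusted p from 0.000845 to 0.0104. The median log2 fold change of the list was 0.19 in ICH against sham, 0.13 in NYKD against ICH and 0.27 in NYKD against sham, where the medians over all genes were 0.05, -0.01 and -0.02.

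Of 11 genes of the WAVE complex and its partners, which delta-2 protocadherins recruit, 3 rose in ICH relative to sham: Cyfip1 (0.70 ± 0.16, adjusted p = 0.00601), Wasf2 (0.51 ± 0.15, adjusted p = 0.0271) and Nckap1l (1.55 ± 0.19, adjusted p = 8.92e-05). Nckap1l is the blood-cell form of its subunit, and microglia and macrophage markers were higher too, with 5 of 7 raised and sums of 580.5 to 1045 CPM in ICH and 373.5 to 481.3 CPM in sham libraries. Their part in the result was not tested. The list's median was -0.29, below 0. In NYKD against ICH 1 of 11 rose, Wasf2, with 107.8 CPM in NYKD and 69.6 CPM in ICH on average (0.63 ± 0.15, adjusted p = 0.0375).

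Of 10 genes of sheddases and gamma-secretase, the kinds of protease that cut protocadherins at the membrane, 4 rose in ICH relative to sham: the sheddase gene Adam17 (0.98 ± 0.17), the gamma-secretase genes Psen2 (0.56 ± 0.16) and Ncstn (0.51 ± 0.12), and the membrane metalloprotease gene Mmp14 (1.73 ± 0.29), with adjusted p from 0.000881 to 0.0248. Of these genes 0 passed in NYKD against ICH by edgeR, at an adjusted or unadjusted p, with 0 called by DESeq2 or limma-voom. In NYKD against sham 6 rose, and Adam10, the main sheddase of gamma protocadherins, averaged 192 CPM in NYKD and 103 CPM in sham (0.90 ± 0.19, adjusted p = 0.00289). The list's median log2 fold change was 0.37 in ICH against sham and 0.53 in NYKD against sham. Of 11 kinases, phosphatases and scaffolds reported to bind protocadherins, Ppp1ca, a protein phosphatase gene, fell in ICH relative to sham (-0.79 ± 0.22, adjusted p = 0.0233) and the kinase gene Rock1 rose (0.52 ± 0.15, adjusted p = 0.0289).

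Other cadherins gave a mixed picture. Of 20 classical and type II cadherins, 3 fell in ICH relative to sham: Cdh6 (-0.67 ± 0.19), Cdh7 (-0.69 ± 0.21) and Cdh18 (-0.89 ± 0.22), with adjusted p from 0.0103 to 0.0360. The endothelial cadherin gene Cdh5 rose (1.07 ± 0.24, adjusted p = 0.00622). DESeq2 called 4 of the 20 lowered and 2 raised in ICH, and limma-voom 4 and 1. In NYKD against ICH DESeq2 called 4 of them raised, and edgeR and limma-voom 0. Of 15 further members of the superfamily, 2 fell: Fat3, a giant cadherin that shapes dendrites (-0.84 ± 0.27, adjusted p = 0.0443), and Clstn3, a synaptic calsyntenin (-0.97 ± 0.20, adjusted p = 0.00318). In NYKD against ICH 1 of 15 rose, the giant cadherin gene Fat1, with 141.9 CPM in NYKD and 81.6 CPM in ICH on average (0.80 ± 0.21, adjusted p = 0.0460).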

How the data were processed

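Poly-A RNA from the ipsilateral basal ganglia of 15 mice was sequenced, with 1 library per mouse per the labels and the design text. The authors deposited 1 table of raw counts per Ensembl gene with 1 column per library and no normalisation, per the file headers and values. Per the submitters' processing notes, HISAT2 2.0.5, edgeR 3.22.5 and the mm10 build were used, with no role stated. The sources used here do not give the counting program, annotation release or strandedness. Without strand, reads of overlapping opposite genes cannot be told apart, and the counting of exons shared within a cluster is unknown. Library totals ran from 13539203 to 19909140 counts.

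Groups came from the sample titles. Symbols, coordinates and exon sharing came from GENCODE mouse release M21 by Ensembl ID. Members were the genes with a symbol starting with Pcdh and a mean of at least 0.5 CPM over 15 libraries. Members, lists and the rule for named genes were chosen with earlier results of these data known. Named were all called members, all non-clustered members, the C-type isoforms, the 3 most abundant and the smallest-p members of each cluster, members near the threshold and up to 4 called genes of each list. Further members named where a short count is listed were chosen after their values were seen. Genes were filtered with filterByExpr, scaled by TMM and fitted in 1 edgeR 4.0.16 quasi-likelihood model over all 15 libraries (R 4.3.3), with robust dispersions and a coefficient per group. P values were adjusted over all 18052 tested genes by Benjamini-Hochberg, and a call is an adjusted p under 0.05, whatever the fold change. Adjusted p values are edgeR's unless another tool is named. SE is approximate: the size of the log2 fold change divided by the root of the F statistic. Each edgeR p value sets a difference between groups against the spread between mice within groups. That spread was estimated over all 3 groups, with information shared across genes. Alternatives were RLE or library-total scaling, 2 other count filters, DESeq2 1.42.0, limma-voom 3.58.1, a fit of 2 groups, a replicate block and the omission of each library. The omission of ICH replicate 4 together with sham replicate 1 was chosen after seeing the data. The scripts were tested on simulated counts, as was the calling of genes.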

Additional observations from a re-analysis of the deposited data

Results flagged for a closer look

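In 4 of 87 member groups examined (29 named members in 3 groups of 5), 1 library lay far from the other 4, where chance gives about 1 in 20. Pcdh20 was at 106.6 CPM in NYKD replicate 4, against 10.89 to 28.20 CPM in the other NYKD libraries. Pcdh20 was also at 40.83 CPM in ICH replicate 1, against 8.764 to 13.04 CPM in the other ICH libraries. Pcdh19 was at 67.98 CPM in ICH replicate 1, against 16.40 to 29.37 CPM in the others. Pcdhb14 was at 21.49 CPM in sham replicate 5, against 12.10 to 14.60 CPM in the others. NYKD replicate 4 and ICH replicate 1 also had the highest summed level of cortical and thalamic excitatory neuron markers of their groups, 1234 and 744.6 CPM, and the part of that tissue in the Pcdh20 and Pcdh19 values was not tested. For Pcdh20 the log2 fold change of NYKD over ICH, 1.05 with all libraries, was 0.044 without NYKD replicate 4 (adjusted p = 0.969) and 1.66 without ICH replicate 1 (adjusted p = 0.0852), and Pcdh19 rose in NYKD over ICH without ICH replicate 1 (adjusted p = 0.0270).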

How the results depend on the processing

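In ICH against sham, where 4 members were called, DESeq2 called 9, the fit of 2 groups 2, the omission of ICH replicate 4 with sham replicate 1 called 12, the replicate block 4, and the omission of single libraries 2 to 11 (2 without ICH replicate 3 or sham replicate 5, 9 without ICH replicate 1, 11 without sham replicate 1). In NYKD against ICH, where 2 were called, DESeq2 called 10, the replicate block 0 (24 at an unadjusted p under 0.05), the omission of ICH replicate 4 with sham replicate 1 called 0 (25 unadjusted), and the omission of single libraries 0 to 16. In NYKD against sham, where 2 were called, the fit of 2 groups called 5, the replicate block 3, and the omission of single libraries 2 to 3. Over all genes, NYKD against ICH gave 625 calls, 1817 with DESeq2, 387 with limma-voom and 0 with the replicate block, against 4185 at an unadjusted p under 0.05. With single libraries left out, the calls over all genes ran from 0 to 1508. In ICH against sham 826 genes were lowered over all genes, 1493 with DESeq2 and 1236 without ICH replicate 4 and sham replicate 1. Of the same-numbered pairs of libraries, 4 of 15 had deviations correlated above 0.1. That check cannot settle whether the replicate numbers mark a pairing, batch or day, which the sources used here do not state. No member's called direction reversed under any setting tried. The cause of these shifts was not tested. Low counts limit the precision: Pcdha1, Pcdh12 and Pcdhac1 had the largest SE in ICH against sham (0.72, 0.69 and 0.61).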
